A study of Mus musculus with 8 samples.

Results

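Binding of the transcription factors Myc and E2f3 was examined at 10 mouse genes of growth metabolism that are commonly listed as Myc targets: Odc1, Cad, Ldha, Hk2, Slc19a1, Shmt1, Shmt2, Mthfd2, Nme1 and Tfrc. These 10 of 22380 protein-coding genes were chosen by name, with earlier results of these data known. All were found in the annotation. For each gene, every deposited binding site within 1 kb of an annotated start site, and separately within 5 kb, was collected with its position and score. The sites came from ChIP-exo-seq, in which an exonuclease trims immunoprecipitated DNA back to the crosslinked protein.

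The 8 libraries covered crypt cells and villus cells of mouse intestine, from control (wild type) mice and from mice lacking Rb, each with a Santa Cruz antibody against Myc and one against E2f3. All mice were of a mixed background, C57BL/6 X 129 X FVB/N. Rb was removed with the inducible intestinal Cre transgene Ah-cre; the labels do not say whether the control mice carried the transgene or received its inducer, and they give no age or number of animals. Each group was 1 library, the sequencing depth is unknown and no input library was analysed here, so no difference between groups was tested and none has a replicate check. Site lists measure neither RNA nor the Rb1 deletion, so the labels for genotype and cell type could not be checked. The score is the authors' own value per site, between 2 and a cap of 999. What it measures is not stated, and it was used only to describe and rank sites within a list.

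Myc binds DNA together with Max at the E-box CACGTG and is known for driving genes that supply growing cells with building blocks. E2f3 belongs to the E2F family, which is restrained by the Rb protein and acts mainly on genes needed for S phase. In the intestine, dividing cells sit in the crypts, while the cells covering the villi have left the cell cycle and are specialised for absorption.

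The sequences that follow are given from 5′ to 3′ on the strand of the gene, from the mm9 genome. The first set is shown because it holds the E-box at the highest-scored Myc site of each of the 5 genes that had one within 1 kb in Rb-deficient crypt. Capitals mark the E-box. The Odc1 and Slc19a1 windows each hold a pair of E-boxes, and the Myc site lay on the second of each pair.
Odc1, chr12:17551994-17552059, plus strand, intron: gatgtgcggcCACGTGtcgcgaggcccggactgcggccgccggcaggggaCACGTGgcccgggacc
Cad, chr5:31357218-31357246, plus strand, 5' UTR: cgcgcagcgagcCACGTGgaccaactccg
Slc19a1, chr10:76496531-76496585, plus strand, intron: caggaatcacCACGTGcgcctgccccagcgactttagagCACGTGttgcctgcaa
Shmt1, chr11:60624664-60624692, minus strand, 5' UTR: tggttcccggagCACGTGctgggctgtta
Mthfd2, chr6:83267258-83267318, minus strand, intron: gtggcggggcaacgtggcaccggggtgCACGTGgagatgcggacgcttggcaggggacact

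The second set holds the E2f3 sites of the pair of genes that had one in all 4 E2f3 libraries. Capitals mark the E2F motif, searched on either strand as TTCCCGC, beside it TTCGCGC, also TTGCCGC, and finally TTGGCGC.
Shmt2, chr10:126959013-126959073, minus strand, intron: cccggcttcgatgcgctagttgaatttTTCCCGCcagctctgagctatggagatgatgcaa
Tfrc, chr16:32608855-32608915, plus strand, upstream of the gene: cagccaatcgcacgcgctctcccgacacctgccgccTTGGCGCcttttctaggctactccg

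The third set holds E-boxes near starts of Ldha and Hk2 that had no site in any library within 50 bp. It was chosen after the values were seen. Capitals mark E-boxes and, at Ldha, the E2F motif beside the E-box.
Ldha, chr7:54101116-54101150, plus strand, intron: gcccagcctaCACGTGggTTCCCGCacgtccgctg
Hk2, chr6:82723551-82723621, minus strand, intron: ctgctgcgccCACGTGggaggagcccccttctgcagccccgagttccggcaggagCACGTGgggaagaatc

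The last set holds the highest-scored site within 1 kb of a start for genes where no whole motif lay in the window shown. Windows reach 14 bp to each side in or close to exons and 30 bp elsewhere. At Cad, Ldha and Nme1 a motif lay within 50 bp of the site but not wholly inside the window. Capitals mark the called base.
Cad, E2f3 in control crypt, chr5:31357196-31357224, plus strand, 5' UTR: tcccgcctgctctcCagcgccccgcgcag
Ldha, E2f3 in control crypt, chr7:54102622-54102650, plus strand, 5' UTR: gatgggagaagagcGggagggcagctttc
Hk2, E2f3 in Rb-deficient crypt, chr6:82724592-82724652, minus strand, upstream of the gene: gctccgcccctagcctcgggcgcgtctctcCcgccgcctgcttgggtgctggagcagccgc
Shmt1, E2f3 in Rb-deficient crypt, chr11:60624775-60624803, minus strand, intron: gtaggggcggggcgGgaccaggctgcgct
Mthfd2, Myc in control crypt, chr6:83268025-83268085, minus strand, upstream of the gene: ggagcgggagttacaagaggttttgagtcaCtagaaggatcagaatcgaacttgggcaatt
Nme1, Myc in control crypt, chr11:93829368-93829428, minus strand, intron: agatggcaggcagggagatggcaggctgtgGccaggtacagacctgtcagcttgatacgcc

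Myc was found at 5 of the 10 genes in each crypt library and at none in either villus library. In control crypt these were Odc1, Cad, Mthfd2, Nme1 and Tfrc, where 21.7% of all protein-coding genes had a Myc site within 1 kb. In Rb-deficient crypt they were Odc1, Cad, Slc19a1, Shmt1 and Mthfd2, where 9.59% of all genes had one. The villus Myc lists reached few promoters at all, 1.04% of genes in control and 0.603% in Rb-deficient villus, so a count of 0 among 10 genes lies near that background. Within 5 kb, 7 genes had a control crypt Myc site beside 57.1% of all genes, which is close to that background. In Rb-deficient crypt 6 had one beside 22.8%. Control villus Myc had 0 beside 4.47%, and Rb-deficient villus Myc had 1, Hk2, beside 2.68%.

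E2f3 was found at more of these genes than Myc in each of the 4 settings. Within 1 kb, crypt cells had an E2f3 site at 6 genes in the control (15.7% of all genes) and at 8 with Rb lost (21.1%). Villus cells had one at 2 genes in the control (4.83%) and at 7 with Rb lost (13.0%). Within 5 kb the crypt counts were 8 (28.2%) and 9 (31.2%), and the villus counts 3 (8.43%) and 8 (19.1%), control first. The 4 E2f3 counts within 1 kb were each a larger share of the 10 genes than of all genes. Over all libraries of an antibody, 7 of the 10 genes had a Myc site within 1 kb in at least 1 library (24.9% of all genes) and 9 had an E2f3 site (25.3%). Ldha, Hk2 and Shmt2 had no Myc site within 1 kb in any library, and Slc19a1 had no E2f3 site within that distance. The 10 genes have a median of 5 annotated start sites against 2 for all protein-coding genes, which gives them a wider search window.

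**Figure D1:**
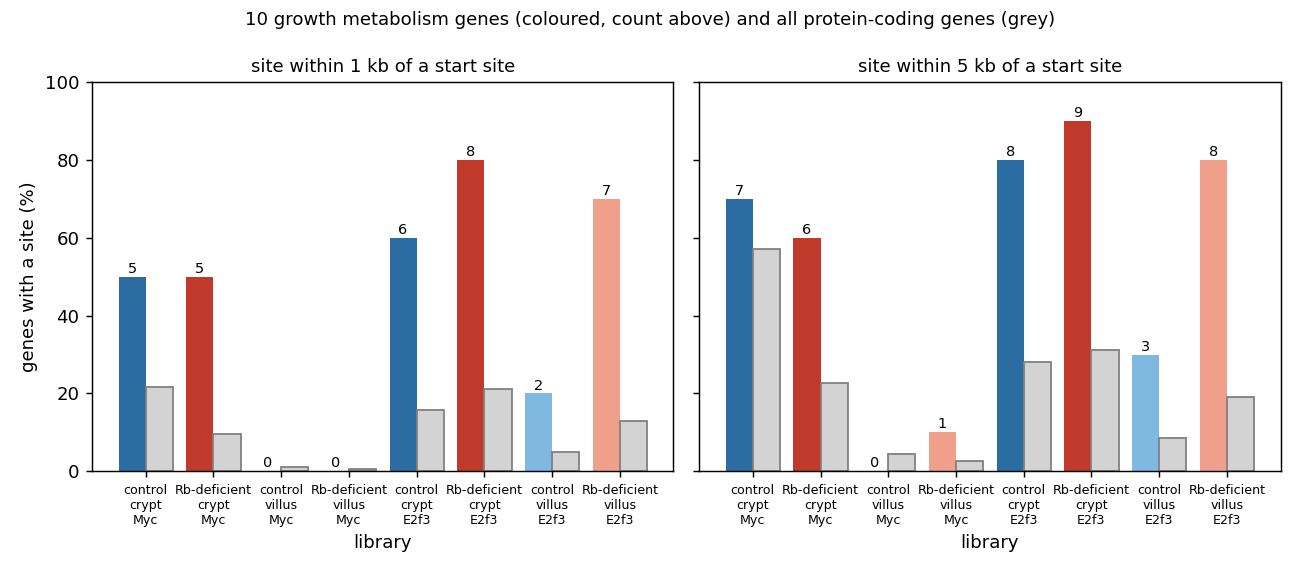
Genes with a binding site within 1 kb (left) or 5 kb (right) of a start site, in percent, for the 10 genes (coloured bars, count printed above) and for all protein-coding genes (grey bars) in each of the 8 libraries. Within 1 kb, Myc was found at 5 of 10 genes in each crypt library and at 0 in villus, and E2f3 at 2 of 10 in control villus against 7 in Rb-deficient villus.

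**Figure D2:**
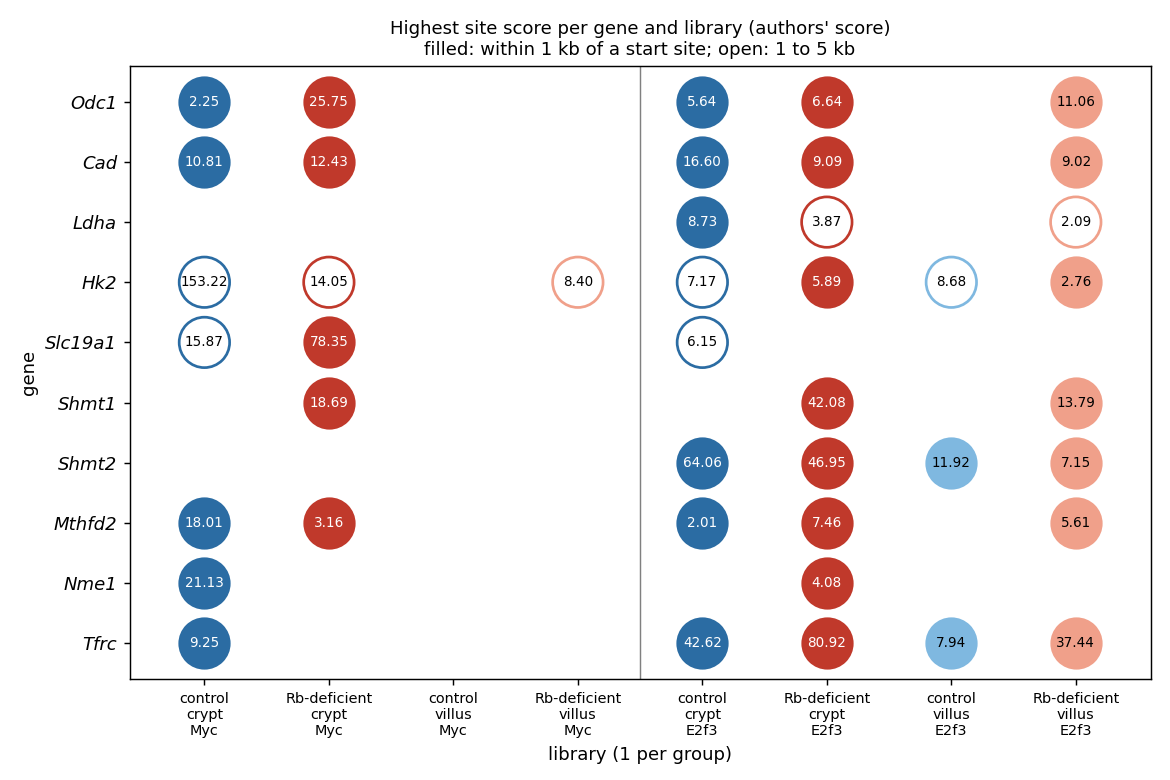
Highest site score of each gene (rows) in each library (columns), as the authors' score, taken within 1 kb where a site was there and otherwise within 5 kb; filled circles mark a site no more than 1 kb from a start and open circles a site between 1 and 5 kb. Colours mark cell type and genotype; an empty cell has no site within 5 kb. Control villus Myc is empty, and Shmt2 and Tfrc are filled in all 4 E2f3 columns.

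Odc1 encodes ornithine decarboxylase, the enzyme that commits ornithine to polyamine synthesis. It lies on chromosome 12 from 17551679 to 17558308. In Rb-deficient crypt, Myc had a site in the intron 255 bp downstream of a start (score 25.75, rank 5159 of 31397) and another 210 bp upstream of the gene (15.99). The intronic site lay on the second E-box of the pair shown. In control crypt, Myc had intronic sites 246 and 422 bp downstream, both with a score of 2.25, near the lowest in the list. The former lay 8.5 bp from the centre of that same E-box. E2f3 had a site at 1 and the same base, 238 bp upstream, in control crypt (score 5.64), Rb-deficient crypt (6.64) and Rb-deficient villus (11.06), and a further one 111 bp upstream (2.39) in Rb-deficient crypt. No site of control villus lay near Odc1; its nearest E2f3 site was 61.2 kb away. No E2F motif lay within 250 bp of these E2f3 sites, nor within 1 kb of a start of Odc1.

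Cad and Nme1 serve nucleotide synthesis. Cad, on chromosome 5 from 31357153 to 31380852, encodes the trifunctional enzyme that starts pyrimidine synthesis. Myc had a site in its 5' UTR 48 bp downstream of a start in Rb-deficient crypt (score 12.43), on the E-box shown. In control crypt the Myc site lay in a coding exon 80 bp downstream of another start (10.81); that E-box was within 250 bp of it but not within 50 bp. E2f3 sites lay 26 bp downstream of a start in control crypt (16.60), and 14 bp downstream in Rb-deficient crypt (9.09) and Rb-deficient villus (9.02). The E2f3 sites had an E2F motif, TTGCCGC, with its centre 18, 6 and 6 bp away. Cad therefore carried an E2F motif and an E-box at its start, with the Myc and E2f3 sites of Rb-deficient crypt 34 bp apart. The E2f3 and Rb-deficient crypt Myc sites also lay within 1 kb of a start of the neighbouring gene 0610007C21Rik.

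Nme1 encodes a nucleoside diphosphate kinase, which passes phosphate between nucleotides, and lies on chromosome 11 from 93818293 to 93829835. Myc had sites in control crypt only, 188 bp downstream of a start (score 21.13, rank 54021 of 159181) and 69 bp upstream of it (11.40). The former had an E-box centred 32.5 bp away. E2f3 had 1 site, of low score, in Rb-deficient crypt (4.08), 105 bp upstream. All 3 sites also lay within 1 kb of a start of an annotation entry named Nme2, a gene of the same family. The Rb-deficient crypt Myc site nearest to Nme1, 10.4 kb away, lay 97 bp downstream of a start of a separate entry also named Nme2. It had an E-box (8.05).

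The folate and one-carbon genes differed from one another in which factor was found. Slc19a1 encodes the reduced folate carrier, which brings folate into the cell, and lies on chromosome 10 from 76494986 to 76523747. It had the highest-scored Myc site within 1 kb of a start among the 10 genes, in Rb-deficient crypt (score 78.35, rank 669 of 31397, the top 2.13% of that list). The site lay in an intron 509 bp downstream of a start and 1587 bp downstream of the first one, on the second E-box of the pair shown. No other library had a site within 1 kb. In control crypt both Myc (15.87) and E2f3 (6.15) had an intronic site further inside the gene, 3158 and 3173 bp upstream of the nearest start.

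Shmt1 and Shmt2 encode the cytosolic and mitochondrial serine hydroxymethyltransferases, which move a carbon unit from serine to folate. Shmt1 lies on chromosome 11 from 60601606 to 60625220 and had sites only in Rb-deficient libraries. Myc in Rb-deficient crypt lay 85 bp upstream of a start (score 18.69), on an E-box. A second Myc site lay 838 bp downstream of that start (5.62), 3.5 bp from the centre of another E-box. From the start of a coding transcript, to which the E2f3 distances below refer, these Myc sites lay 89 and 1012 bp downstream. E2f3 in Rb-deficient crypt lay 22 bp upstream (42.08, rank 2781 of 27396) and 71 bp upstream (5.27). In Rb-deficient villus, E2f3 lay 28 bp downstream (13.79) with an E2F motif 1 bp away. The nearest control crypt sites were 10.9 kb (Myc) and 15.9 kb (E2f3) from a start, and both control villus sites were 32.5 kb away.

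Shmt2, on chromosome 10 from 126954195 to 126959491, had an E2f3 site at 1 and the same base, 126959043, in all 4 E2f3 libraries and a Myc site in none. The base lay in an intron 448 bp downstream of the start, at the centre of the motif TTCCCGC. Such placement was usual in these lists, whose positions had all been shifted by 1 bp to meet motif centres. Where E2f3 was called close to the motif, the called base was the motif centre in 75.5% to 88.5% of cases, depending on library and strand. The exact shared base is therefore not particular to the Shmt2 site. The score was 64.06 in control crypt (rank 1784 of 32666), 46.95 in Rb-deficient crypt (2372 of 27396), 11.92 in control villus (2568 of 7405) and 7.15 in Rb-deficient villus (7480 of 14843). The E-box of Shmt2, centred 226.5 bp downstream of the start, had no site of either factor within 50 bp. The nearest Myc site was 8.8 kb away in control crypt and 48.8 kb away in Rb-deficient crypt.

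Mthfd2 encodes a mitochondrial methylenetetrahydrofolate dehydrogenase and lies on chromosome 6 from 83255685 to 83267600. The E2f3 sites sat at the start itself, 6 bp upstream in control crypt (score 2.01) and Rb-deficient crypt (7.46) and 1 bp downstream in Rb-deficient villus (5.61), with no E2F motif within 250 bp. Myc in Rb-deficient crypt lay on an E-box in the intron 312 bp downstream, with a low score (3.16, rank 28653 of 31397). In control crypt, Myc lay 455 bp upstream (18.01) and 270 bp upstream of a start inside the gene (4.13), both with no E-box within 250 bp. The Myc sites of control and Rb-deficient crypt thus lay at different places of the same gene.

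The glycolytic genes Hk2 and Ldha had no Myc site within 1 kb of a start. Hk2 encodes hexokinase 2, which phosphorylates glucose on entry, and lies on chromosome 6 from 82675019 to 82724448. E2f3 had a site 174 bp upstream of the gene, at the same base, in Rb-deficient crypt (score 5.89) and Rb-deficient villus (2.76), with the motif TTCCCGC centred 102 bp away. Inside the gene, 6 libraries had a site in an intron between 2307 and 2365 bp downstream of the nearest start. These were Myc in control crypt (153.22, rank 5651 of 159181), Rb-deficient crypt (14.05) and Rb-deficient villus (8.40), and E2f3 in control crypt (7.17), Rb-deficient crypt (21.93) and control villus (8.68). The intronic sites of both antibodies fell together, with no E-box and no E2F motif within 250 bp. The pair of Hk2 E-boxes shown, centred 206.5 and 251.5 bp upstream of a start, had no site within 50 bp in any library.

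Ldha encodes the lactate dehydrogenase subunit that makes lactate from pyruvate and lies on chromosome 7 from 54096845 to 54110997. It had the fewest sites of the 10 genes within 1 kb together with Slc19a1. E2f3 in control crypt lay in a 5' UTR 135 bp downstream of an internal start (score 8.73), 5791 bp downstream of the first start. Rb-deficient crypt (3.87) and Rb-deficient villus (2.09) had E2f3 sites 1850 and 1842 bp upstream of the gene, the latter near the bottom of its list. The nearest Myc sites were between 13.5 and 14.5 kb from a start in the 4 Myc libraries. Ldha holds 3 E-boxes within 1 kb of its starts, and the one shown lies 2 bases from an E2F motif, yet none of them had a site within 50 bp.

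Tfrc encodes the transferrin receptor, which takes up iron, and lies on chromosome 16 from 32609006 to 32632880. Among the 10 genes it had the highest-ranked E2f3 site in both Rb-deficient lists, as Shmt2 had in both control lists. E2f3 lay 121 bp upstream of the first start in control crypt (score 42.62, rank 3334 of 32666) and Rb-deficient crypt (80.92, rank 1015 of 27396), 142 bp upstream in control villus (7.94, rank 3958 of 7405) and 113 bp upstream in Rb-deficient villus (37.44, rank 878 of 14843). The motif TTGGCGC was centred 9, 9, 30 and 1 bp downstream of these sites. Myc was present within 1 kb in control crypt alone, 816 bp upstream (9.25), 15 bp from a low-scored control crypt E2f3 site (3.15). In Rb-deficient crypt the nearest Myc site was 6.3 kb away, and the Tfrc E-box in a 5' UTR had no site within 50 bp.

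**Figure D3:**
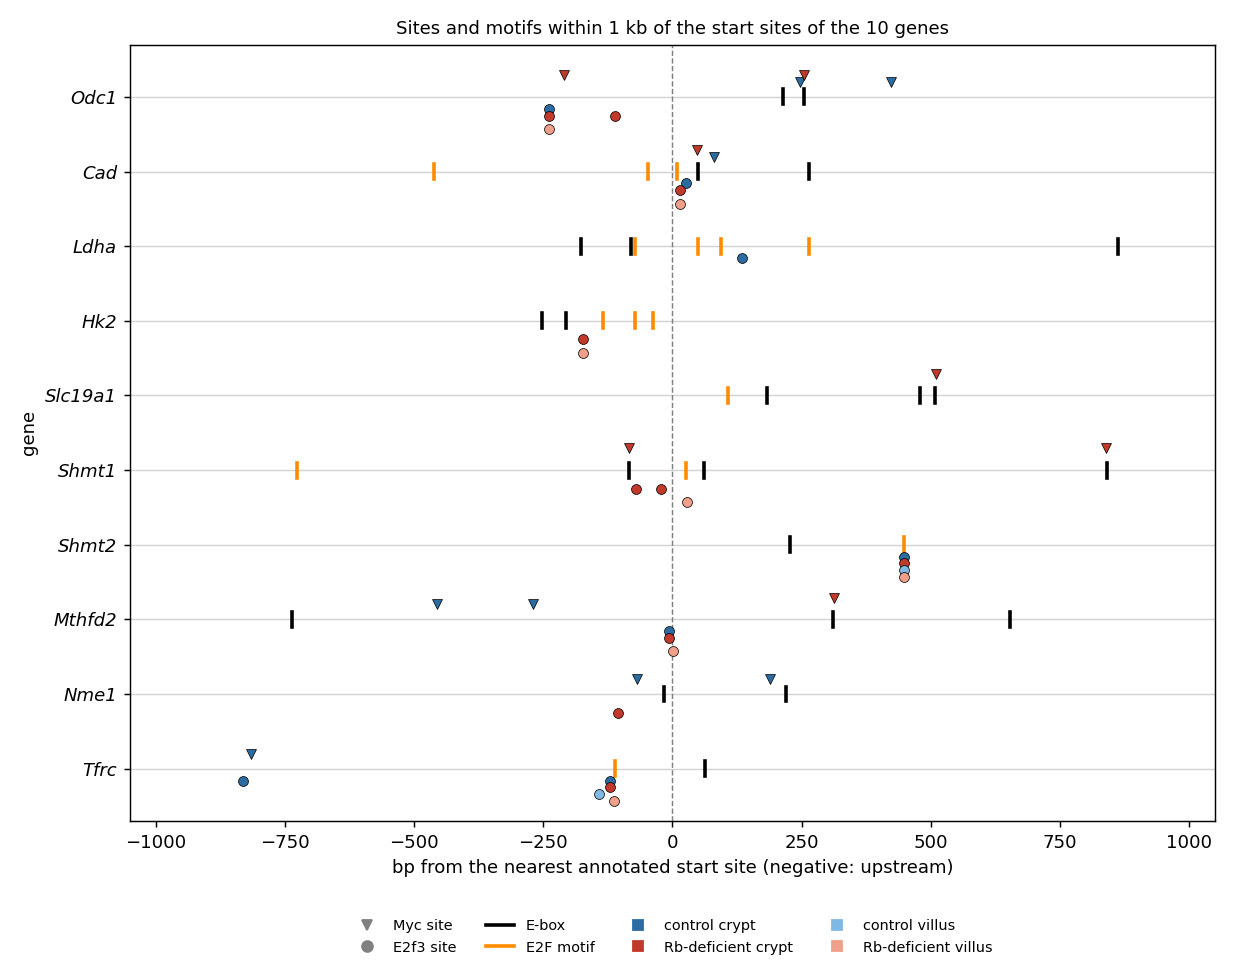
Sites within 1 kb of the start sites of the 10 genes, placed by distance in bp to the nearest annotated start (negative is upstream). Triangles are Myc sites and circles E2f3 sites, coloured by cell type and genotype and offset vertically by library; black and orange ticks are E-boxes and E2F motifs. Odc1, Cad, Slc19a1, Shmt1 and Mthfd2 each have a Myc site of Rb-deficient crypt on an E-box. The other such site of Odc1, 210 bp upstream, has no E-box within 250 bp. The E2f3 sites of Shmt2 fall on 1 base in 4 libraries, the centre of an E2F motif. Placement at the centre of a nearby motif was usual in the E2f3 lists and in Rb-deficient crypt Myc.

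The called Myc positions of the 2 crypt libraries differed in their relation to E-boxes. Binding cannot be told apart here from how each list placed its sites. Of 7 Rb-deficient crypt Myc sites within 1 kb of these genes, 6 had an E-box within 50 bp (85.7%, exact 95% binomial interval 42.1% to 99.6%), against 27.4% (25.6% to 29.3%) of all 2217 promoter sites in that list. Each of the 5 genes with a site contributed at least 1 of the 6. In control crypt 2 of 8 Myc sites had one (25.0%, 3.19% to 65.1%), at Odc1 and Nme1, against 3.44% (2.99% to 3.94%) of 5926 promoter sites. Intervals cover counting error only, and sites of 1 gene are not independent. The placement of sites is part of these numbers: 5 of the 6 sites lay at an E-box centre to within 0.5 bp, as did 88.7% of all sites in that list that had an E-box this near, against 2.72% in the control crypt list. Within 250 bp, where exact placement counts for less, 6 of 7 and 5 of 8 member sites had an E-box, against 34.8% and 10.9% of promoter sites.

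All 10 genes hold an E-box within 1 kb of a start, as do 39.0% of all protein-coding genes. Around the first start alone it is 9 of 10 against 27.8%, Slc19a1 being the exception. Among all genes with an E-box within 1 kb of a start, 29.8% had a control crypt Myc site in that window. In Rb-deficient crypt 16.1% had one. The promoter sites of all genes compared above include those of genes without an E-box. Of the 22 E-boxes within 1 kb of the starts of the 10 genes, 9 had a Myc site within 50 bp in Rb-deficient crypt, against 5.20% (4.82% to 5.60%) of 12705 E-boxes near starts of all genes. In control crypt 3 did, against 1.79% (1.57% to 2.04%). Neighbouring E-boxes can share a site, as at Odc1, Slc19a1 and Shmt1. In the villus libraries no E-box of these genes had a Myc site. The bases within 500 bp of the first start were 57.2% G and C in the median gene of the 10 and 54.7% in the median of all genes, with a ratio of observed to expected CG pairs of 0.65 and 0.55.

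E2F motifs were present at some of the E2f3 sites of these genes. In crypt, the motif lay within 50 bp of 4 of 7 sites in the control (36.3% of promoter sites) and 3 of 10 with Rb lost (31.4%). In villus it lay near 2 of 2 (54.6%) and 4 of 7 (36.6%). The genes with the motif at an E2f3 site were Cad, Ldha, Shmt1, Shmt2 and Tfrc. At Odc1, Mthfd2 and Nme1 the E2f3 sites had no such motif, and these genes hold none within 1 kb of a start. The scores of the member sites were moderate. Their median was 10.03 in control crypt Myc (12.69 over promoter sites of all genes), 15.99 in Rb-deficient crypt Myc (9.13), 8.73 in control crypt E2f3 (11.76), 7.05 in Rb-deficient crypt E2f3 (10.10), 9.93 in control villus E2f3 (9.07) and 9.02 in Rb-deficient villus E2f3 (7.58).

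Between genotypes, counting sites within 1 kb of a start, E2f3 in villus showed the widest gap in counts. Shmt2 and Tfrc had an E2f3 site in both villus libraries. Odc1, Cad, Hk2, Shmt1 and Mthfd2 had one in Rb-deficient villus only, and none of the 10 genes had one in control villus only. Over all genes, 897 had a site in both, 2004 with Rb lost only and 183 in the control only, so more genes were added than missing across the genome as well. Of the 5 genes, Odc1, Cad and Mthfd2 also had an E2f3 site in control crypt, while Hk2 and Shmt1 had one within 1 kb only in the Rb-deficient libraries; the Hk2 sites of the control libraries lay in the intron beyond it. In crypt within 1 kb, E2f3 was found at Odc1, Cad, Shmt2, Mthfd2 and Tfrc in both genotypes, at Hk2, Shmt1 and Nme1 in Rb-deficient crypt only and at Ldha in control crypt only. Over all genes, 2872 had an E2f3 site in both crypt libraries, 1860 with Rb lost only and 651 in the control only. The split of the 10 genes thus resembled that of all genes. For Myc in crypt within 1 kb, Odc1, Cad and Mthfd2 had a site in both genotypes, Slc19a1 and Shmt1 in Rb-deficient crypt only, and Nme1 and Tfrc in control crypt only. Within 5 kb, Slc19a1 also had a Myc site in control crypt and Ldha an E2f3 site in Rb-deficient crypt, as given above. Over all genes, 1432, 714 and 3414 fell for Myc in crypt into these classes, so the control crypt list, with 159181 sites against 31397, reached many more genes.

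With 4119 sites from each list, the length of the shortest, few of the genes kept a site within 1 kb. For E2f3 these were Shmt2 and Tfrc in control crypt (3.40% of all genes) and in control villus (2.93%), Shmt1, Shmt2 and Tfrc in Rb-deficient crypt (5.20%), and Shmt1 and Tfrc in Rb-deficient villus (4.79%). For Myc, Slc19a1 was the only one, in Rb-deficient crypt (1.18%), with 0 genes in control crypt (0.661%), control villus (0.541%) and Rb-deficient villus (0.603%). At equal length the villus E2f3 libraries thus had 2 genes each, and the contrast of 2 against 7 was not seen. Differences in list length, and so possibly in depth, cannot be told apart from differences between genotypes in the full lists.

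Within 1 kb of a start, both factors were found at some of the 10 genes in crypt and at 0 in villus, where few genes had a Myc site at all. In control crypt 4 genes had both (Odc1, Cad, Mthfd2 and Tfrc), and the nearest sites were 597, 198, 449 and 15 bp apart. In Rb-deficient crypt 4 genes had both (Odc1, Cad, Shmt1 and Mthfd2), with the nearest sites 28, 34, 111 and 318 bp apart. Over all genes in control crypt, 34.1% of those with a Myc site also had an E2f3 site, and 46.9% of those with an E2f3 site had a Myc site. Over all genes, 56.6% of those with a Rb-deficient crypt Myc site within 1 kb also had an E2f3 site, and 25.7% of those with an E2f3 site had a Myc site. Counted by sites, 5 of 10 E2f3 sites of these genes in Rb-deficient crypt had a Myc site within 250 bp, against 17.9% (16.8% to 18.9%) of promoter sites. The 5 sites came from Odc1, Cad and Shmt1 alone, and sites of 1 gene are not independent. In control crypt 2 of 7 did, against 31.7% (30.3% to 33.3%), which is near that background. In the other direction, 3 of 7 Myc sites in Rb-deficient crypt had an E2f3 site that near, against 42.1% (40.1% to 44.2%) of promoter sites, which is close to that background. In control crypt 2 of 8 did, against 20.8% (19.7% to 21.8%), also near its background.

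Some genes shared their pattern of presence within 1 kb over the 8 libraries. Odc1, Cad and Mthfd2 had the same one, with Myc in both crypts and E2f3 in both crypts and Rb-deficient villus. It was found at 174 other genes for each, or 0.777% of all genes, including the other 2 of the 3. The pattern of Shmt1, with Rb-deficient libraries alone, was found at 43 other genes. Among them was Mthfd1l, which encodes a mitochondrial enzyme of the same folate pathway. That of Shmt2, with E2f3 in all 4 settings and no Myc, was found at 402 others, among them Tyms, which makes thymidylate, Mtrr, of methionine synthesis, and Ppat, Paics, Gmps and Prps1, of purine synthesis. That of Tfrc was found at 125 others.

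Other genes of the same pathways were examined as 5 lists, also chosen with earlier results of these data known. In them, 78 of 80 genes were found in the annotation. In Rb-deficient crypt 17 of the 78 had a Myc site within 1 kb (9.59% of all genes), and the best site of 11 of the 17 had an E-box within 50 bp. Over all promoter sites of that list, 27.4% had one, a share that is not limited to the best site of each gene. In control crypt 22 had one (21.7%), of which 4 had an E-box, and in the villus libraries 0. Over all promoter sites in control crypt, 3.44% had an E-box within 50 bp. Nme2 was counted in control crypt, also among the 4, by a site it shared with Nme1. Purine and pyrimidine synthesis had the most in Rb-deficient crypt, 9 of 23. With 4119 sites from each list, 0 of the 78 genes had a Myc site within 1 kb in either crypt library. Atic, of the last steps of purine synthesis, had a site 4 bp downstream of a start (score 20.80), Nme6 335 bp downstream (17.95), Ctps, which makes CTP, 942 bp downstream (11.87), Uck2, a uridine kinase, 437 bp downstream (8.15) and Gart, a purine enzyme that uses folate, 175 bp downstream (6.27). Dhodh, of pyrimidine synthesis, scored 5.55, Nme2 8.05, Nme4 5.31 and Impdh2, of GTP synthesis, 3.23. One-carbon and serine metabolism had 5 of 20, namely Mthfd1l (11.03), Mthfd1 (6.12), Fpgs, which retains folate in the cell (6.10), Slc25a32, the mitochondrial folate carrier (5.79), and Psph, of serine synthesis (2.16). Polyamine genes had 2 of 9. Srm, the spermidine synthase gene, had a site 169 bp upstream (16.33) with an E-box, and Azin1, an inhibitor of the antizyme that degrades ornithine decarboxylase, had one of low score (2.21). Glycolysis had 1 of 16, Pgk1 (7.55), and iron handling 0 of 10.

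In crypt, E2f3 was found within 1 kb of 24 of the 78 genes in the control (15.7%) and of 35 with Rb lost (21.1%). Nme2 was among the 35 by a site it shared with Nme1. In villus it was found at 11 (4.83%) and 22 (13.0%). Purine and pyrimidine synthesis had 9, 11, 7 and 9 of 23 in that order, one-carbon and serine metabolism 7, 8, 2 and 6 of 20, glycolysis 3, 7, 1 and 2 of 16, polyamine genes 3, 5, 1 and 2 of 9, and iron handling 2, 4, 0 and 3 of 10. Tyms scored 999.00 in both crypt libraries, and in villus 15.65 in the control and 188.24 with Rb lost. Ppat and Paics are divergent neighbours and share their sites. In both crypt libraries the best site lay 155 bp upstream of the nearest Ppat start and 44 bp upstream of the nearest Paics start (118.90 in control, 120.07 with Rb lost). In both villus libraries it lay 183 bp downstream of a Ppat start and 7 bp downstream of another Paics start (43.28 and 40.03). Azin1 had an E2f3 site at the same base 207 bp upstream in all 4 libraries, with an E2F motif, scoring 147.51 and 210.12 in crypt and 18.53 and 97.84 in villus, control first.

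**Figure D4:**
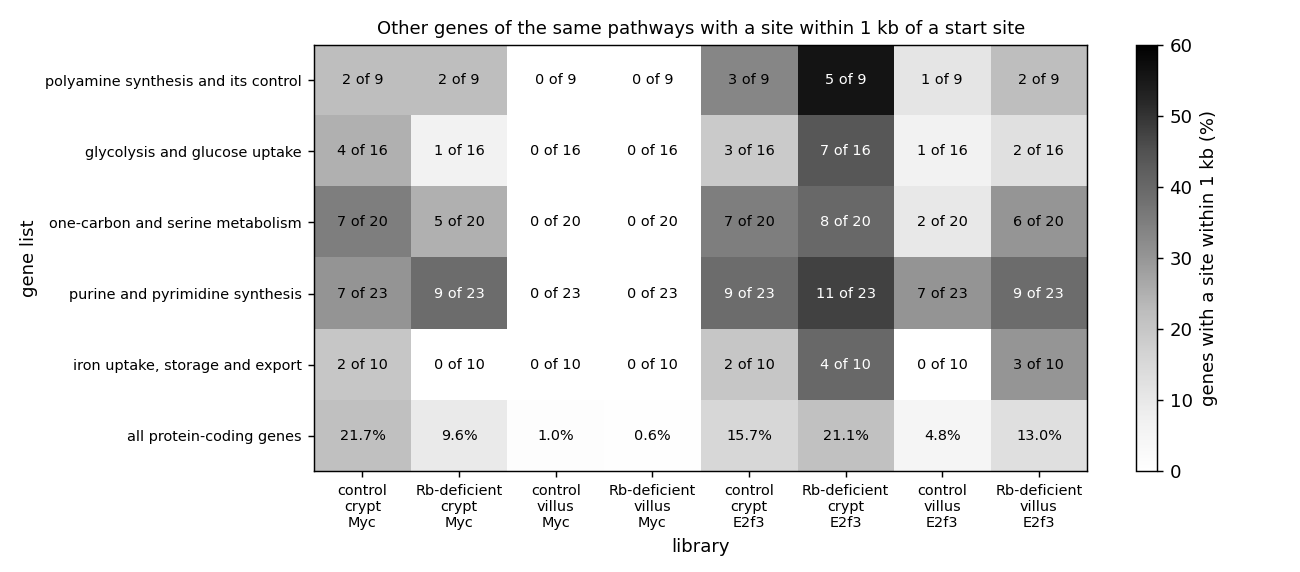
Number of genes with a site within 1 kb of a start, of those found, for 5 lists of other genes in the same pathways (rows) and all protein-coding genes (last row, in percent), in the 8 libraries (columns); shading gives the percentage. For Myc in Rb-deficient crypt, purine and pyrimidine synthesis had 9 of 23 and iron handling 0 of 10.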

How the data were processed

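The authors deposited 1 list of binding sites per library, with a score per site as the only value. The build mm9 and the tools Bowtie2 2.2.1 and MACS2 2.0.10 are named, with no settings, per the submitters' processing notes. The deposited files are named as GEM events from merged data, duplicates kept, that overlap MACS2 peaks. For the merging, the thresholds, the meaning of the score and the read numbers, details were not given in the sources used here. The lists held between 4119 and 159181 sites.

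E2F motif centres lay at a median of 1 bp after the deposited positions in all 4 E2f3 libraries, so 1 was added to each position. Start sites were those of all transcripts of protein-coding genes in GENCODE M1 (70064 of 22380 genes), and sequence came from NCBIM37, the assembly behind mm9. A motif counted when it lay wholly within 50 bp of a site. Ranks run from 1 for the highest score. Intervals are exact (Clopper-Pearson) 95% intervals. Python 3.11.15 with scipy 1.17.1 was used, and window and motif searches were tested on simulated data. All 10 members were named; pathway genes were named when they had a Myc site in Rb-deficient crypt or the presence pattern of a member with at least 3 libraries. The members and lists were chosen with earlier results of these data known. Alternatives were other windows, equal list length, higher scores, protein-coding transcripts and other motif distances; the first start alone was added after seeing the data.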

Additional observations from a re-analysis of the deposited data

How the results depend on the processing

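Each alternative changed 1 choice. Of 83 recomputed counts whose reported value was above 0, 50 stayed within 1.5 times it; a further 21 start from a reported 0 and show little about stability. Counts stayed within that range in the 6 libraries with a gene within 1 kb for windows of 500 bp and 2 kb, with protein-coding transcripts only and with the first start of each gene only. Equal list length moved most counts. Within 1 kb it gave 0 genes for Myc in control crypt, 1 in Rb-deficient crypt, and for E2f3 2 in control crypt, 3 in Rb-deficient crypt and 2 in Rb-deficient villus. Within 5 kb it gave 0, 1, 2, 3 and 2 in the same order, beside 2.85%, 3.40%, 5.64%, 7.47% and 6.96% of all genes. Of the 78 pathway genes it left 0 for Myc in each crypt, and for E2f3 8 and 9 in crypt and 7 and 12 in villus, control first. With scores at or above the median of each list, 2 genes remained for control crypt Myc, near the 12.1% of all genes. For E2f3 there remained 3 (8.96%) and 3 (11.8%) in crypt and 1 (2.68%) and 4 (7.35%) in villus, control first. Both settings drop sites by construction. An E-box lay within 20 bp of 1 and within 250 bp of 5 of the 8 control crypt Myc sites. An E2F motif lay within 20 bp of 2 sites in control crypt and 1 in control villus, and within 250 bp of 6 in Rb-deficient crypt. No paired analysis was possible because each group has 1 library. The unknown depth limits every absence of a site.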

Other observations

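In villus, leaving aside E2f3 with Rb lost, the distal sites nearest to several of these genes lay at almost the same place. For Cad the nearest site on chromosome 5 was at 31332574 for Myc and 31332577 for E2f3 in control villus, and at 31332543 for Myc in Rb-deficient villus. For Shmt1, on chromosome 11, the corresponding positions were 60574147, 60574141 and 60574163, for Nme1 93697796, 93697784 and 93697783, and for Ldha, on chromosome 7, 54117343, 54117336 and 54117341. At each of these genes Rb-deficient villus E2f3 had a closer site. Whether that list also held the shared distal sites was not looked up. Over the whole lists, 55.7% (54.6% to 56.9%) of control villus Myc sites and 76.5% (75.2% to 77.8%) of Rb-deficient villus Myc sites had an E2f3 site of the same cells within 250 bp. Of villus E2f3 sites, 54.3% in the control and 21.4% with Rb lost had a Myc site that near. Sharing was not particular to villus. In crypt the shares were 18.5% and 50.5% of Myc sites and 84.9% and 58.0% of E2f3 sites, control first. The cause of the shared positions was not tested.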
